A study of Pimephales promelas with 16 samples.

Results

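The 100 probes described here are those whose mean level in fathead minnow ovary explants differed from control most after LIN while DHT and flutamide left it near control. They were taken from 15208 probes of a one-colour microarray. The rule kept the 11144 probes that were well above background on all 16 arrays, and of these the 5330 whose means with DHT and with flutamide each lay within 0.3 of the control mean. Among them, 246 differed by at least 0.5 between LIN and control, and the 100 with the largest difference are the members, 16 higher and 84 lower with LIN. All values are log2 levels relative to the 75th percentile of the probe signals on the same array, so a difference of 1 is a doubling or a halving. The members were selected on the means of all 4 groups, so their differences from control, in size and in direction, describe the choice and carry no test. The 100 probes carry 100 different sequence names.

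The explants were ovary tissue of female Pimephales promelas kept in culture for 12 h. The groups were control, DHT, flutamide and LIN, with 4 arrays each, and the 3 compounds were given at 1e-06 M. Strain, age, a carrier in the control, and whether each replicate is a different fish are not given in the labels. Replicates carry the numbers of their titles: control 1, 3, 4 and 6, DHT 1, 4, 5 and 6, flutamide 2, 3, 5 and 6, and LIN 3, 4, 5 and 6.

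LIN is read here as linuron, a phenylurea herbicide named in the series title. It blocks photosynthesis in plants and in mammals is known as a weak antagonist of the androgen receptor that also lowers testosterone production in the fetal testis. Flutamide is a non-steroidal drug that blocks the same receptor, and DHT, dihydrotestosterone, is an androgen that aromatase cannot turn into an estrogen. In the fish ovary androgens are made by the cells around the oocyte and serve as precursors of estradiol, and androgen receptors are present in the follicle cells. The rule asks which probes differed with the herbicide while the androgen and the receptor blocker left them near control.

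In the files a probe has an identifier and the name of a contig or other sequence but no gene name, and 0 of these names matched the RefSeq gene table for Pimephales promelas. No member is therefore given a gene or a function, and the ovary label could not be checked against marker genes. The files used here hold no probe sequences. In bulk tissue, fewer cells of a type and less RNA per cell cannot be told apart.

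Array signal at the 75th percentile lay between 921 and 3418, and each array had 80.9% to 87.8% of its probes well above background. Deviations of arrays from their group means, correlated over probes, ran from r = 0.35 to r = 0.77 in the 16 pairs with the same replicate number in different groups. In the 80 pairs with different numbers they ran from r = -0.40 to r = 0.37. Arrays with 1 number thus deviated together. The arrays lay on 3 slides, scanned on 2 days. No row position on the slides held both a LIN and a control array: controls lay in row 1 with DHT 4, LIN 4 in row 2 with the other DHT arrays, and LIN 3, 5 and 6 in row 4.

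The members are a small share of the probes that differed with LIN. Over the 11144 probes, 1601 differed from control with LIN by at least as much as the last member (415 higher, 1186 lower), and the members are 6.25% of these. The last member stood at -0.64, and the first probe not taken stood at -0.64 as well (-0.6375 against -0.6366). At the other bound, the member nearest to it had a flutamide difference of -0.2996, and the probe just outside had a DHT difference of 0.3001. 56 of the 100 members had a DHT or flutamide difference of 0.2 or more in size.

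The differences of the 16 higher members ran from 0.67 to 2.001, with a median of 0.74. Those of the 84 lower members ran from -1.38 to -0.64, with a median of -0.73. Over all 11144 probes the median difference was -0.10. Within the bounds, flutamide minus control had a median of -0.18 in the lower and 0.13 in the higher members (-0.08 over all 11144 probes), and DHT minus control 0.01 and 0.07 (-0.02 over all). These differences share the control arrays with that of LIN and were used by the rule, so nothing is read from their signs.

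The member with the largest difference was UF_Ppr_AF_104025, a probe for contig FJU.1119.C5. Its control levels were -4.21, -4.43, -1.46 and -5.99 in replicates 1, 3, 4 and 6. With LIN they were -0.83, -0.91, -4.46 and -1.88 in replicates 3, 4, 5 and 6. 3 LIN arrays were high, but LIN 5 lay among the controls, and control 4 lay among the LIN arrays. DHT 4, at -1.17, was near LIN 3 and LIN 4, and DHT 1, 5 and 6 stood at -3.63, -5.78 and -5.40. The flutamide levels were -2.57, -5.02, -4.52 and -4.12 in replicates 2, 3, 5 and 6. The group means were -4.02 ± 1.88 in control, -3.99 ± 2.11 with DHT, -4.06 ± 1.06 with flutamide and -2.02 ± 1.69 with LIN (SD, n = 4 each), which puts the LIN mean 4.00-fold above control, a difference near the SD of the control arrays. Its level also varied with the replicate number (limma F test over all probes, adjusted p = 0.026).

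UF_Ppr_AF_114707, for contig FJU_SB_30.9.C3, was next among the higher members, at 1.76 ± 2.10 (SD, n = 4) with LIN against -0.11 ± 2.06 (SD, n = 4) in control. The LIN levels were 4.33, 0.01, 2.64 and 0.07 in replicates 3, 4, 5 and 6, and the control levels 0.14, 1.95, 0.42 and -2.95 in replicates 1, 3, 4 and 6. Flutamide 5, at 2.41, was near LIN 5, and all arrays of number 6 stood below the other arrays of their group except in LIN, where LIN 4 was as low as LIN 6. The difference of 1.87 was 1.01 without LIN 3 and 0.92 without control 6. This probe varied with the replicate number as well (limma adjusted p = 0.018).

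Among the lower members UF_Ppr_AF_105399, for contig FJU.427.C3, differed most, at -4.23 ± 1.096 with LIN and -2.85 ± 0.60 in control (SD, n = 4 each). The LIN levels were -3.59, -3.07, -4.81 and -5.46 in replicates 3, 4, 5 and 6, against -2.09, -3.55, -2.87 and -2.87 in control replicates 1, 3, 4 and 6. LIN 5 and LIN 6 were low, while LIN 4 lay inside the control range and LIN 3 just below it. The flutamide mean of -2.86 ± 1.99 (SD, n = 4) was near control only through 1 array: flutamide 6 stood at 0.04, and flutamide 2, 3 and 5 at -4.06, -3.22 and -4.21. The difference of -1.38 was -0.77 with normexp background correction and -0.89 with a fixed replicate block.

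UF_Ppr_AF_100659, for contig FJU.13564.C1, stood at -3.05 ± 1.62 with LIN and -1.75 ± 0.71 in control (SD, n = 4 each). The LIN levels were -2.17, -1.62, -3.12 and -5.29 in replicates 3, 4, 5 and 6, and the control levels -1.33, -2.40, -0.97 and -2.31 in replicates 1, 3, 4 and 6. LIN 6 was far below every other array, and LIN 3 and LIN 4 lay inside the control range. The difference of -1.29 was -0.55 without LIN 6 and -0.78 with normexp. That setting models the background of each array, adds an offset of 50 and applies quantile normalization, and these parts were not separated. With quantile normalization alone the difference was -1.10.

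**Figure D1:**
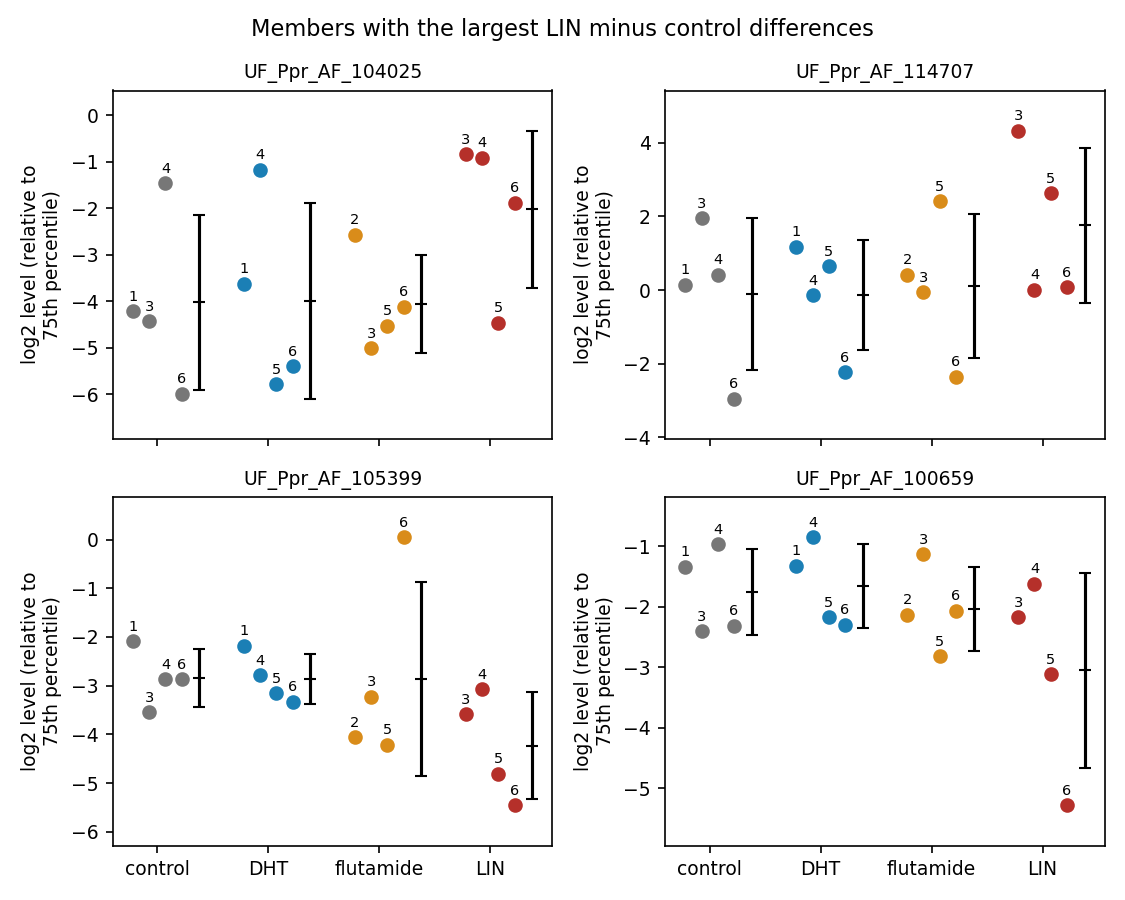
Log2 level, relative to each array's 75th percentile, of the 2 higher and 2 lower members with the largest LIN minus control difference, by group. Points are arrays labelled with their replicate number, and the bars beside them are the mean ± SD of 4 arrays; the LIN and control points overlap in each panel, and LIN 6 stands at -5.29 in the panel of UF_Ppr_AF_100659.

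The name of the set, probes moved by linuron alone, rests on group means and does not describe each array. In no member did the 4 LIN values lie outside the 12 values of the other groups. The share of all probes that did so is not given here, so nothing about the members is read from this. The 4 LIN and 4 control values did not overlap in 4 members, all of them lower, or 4 of 100 against 3.72% of the 11144 probes (LIN lower in 2.6% and LIN higher in 1.12%). A share so near that of all probes is not a result about the members. These 4 are named after their values were seen. UF_Ppr_AF_111475, for gi_73627515, stood at -2.38, -2.30, -2.30 and -4.83 with LIN (replicates 3, 4, 5 and 6) and at -1.94, -2.27, -1.37 and -2.15 in control (replicates 1, 3, 4 and 6). LIN 3, LIN 4 and LIN 5 lay just below control 3, LIN 6 lay far below all, and the difference of -1.02 was -0.39 without that array and -0.62 with normexp.

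UF_Ppr_AF_119053, for contig FJU.5870.C2, stood at -5.12, -5.12, -5.70 and -6.25 with LIN and at -3.79, -4.98, -4.95 and -4.68 in control. UF_Ppr_AF_103765, for contig FJU.3910.C3, stood at -6.11, -5.73, -6.71 and -6.82 with LIN and at -5.01, -5.73, -5.34 and -5.73 in control, with LIN 4 next to the lowest control arrays. UF_Ppr_AF_114347, for contig FJU.6573.C3, stood at -2.09, -1.82, -2.28 and -2.85 with LIN and at -1.69, -1.78, -1.59 and -1.20 in control. In each of the 3, LIN 6 was the lowest LIN array and LIN 5 the next, and LIN 3 and LIN 4 were nearer the control values. Other arrays reached into the LIN range of each: flutamide 6 at -5.23 in the first, flutamide 2, 5 and 6 at -6.60, -6.23 and -6.06 in the second, and flutamide 2, flutamide 5 and DHT 1 at -2.22, -2.05 and -1.92 in the third. The differences were -0.95, -0.89 and -0.70, and with normexp the first and the second were -0.36 and -0.27.

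The same test that compared LIN with control over all probes called none of the members. limma called 3 of 13146 probes, or 0.0228%, and 0 of the 100 members, with 24 members at an unadjusted p below 0.05 (10.4% of all probes). With a fixed block for replicate number 0 members were called among 0 probes called in all, or 0%, with 27 members at an unadjusted p below 0.05 (15.4% of all probes). With the number as a random block 1 member was called, against 147 of 13146 probes or 1.12%, with 45 members at an unadjusted p below 0.05 (18.1%). The rule chose the members on this contrast, so nothing is read from these counts. The 3 probes called without a block were no members. Each also differed from control with flutamide, by -0.91, -1.56 and -2.41. The last 2 differed with DHT as well, by -0.43 and -1.57, and the last was well above background on only 15 arrays.

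The member called with the random block was UF_Ppr_AF_111651, for contig FJU.8245.C1, named after that result was seen. Its LIN levels were -4.04, -4.38, -4.89 and -4.23 in replicates 3, 4, 5 and 6, and its control levels -4.93, -4.55, -5.30 and -5.45 in replicates 1, 3, 4 and 6. LIN stood above control within each shared number, at -4.04 against -4.55 in number 3, -4.38 against -5.30 in number 4 and -4.23 against -5.45 in number 6. DHT also stood above the control of its number in numbers 1, 4 and 6, at -4.65, -4.56 and -5.05. Flutamide stood above it in number 6, at -5.17, and below it in number 3, at -4.73. The rule used all these values, so nothing is read from them. LIN 5 lay among the control values, and above DHT 5 and flutamide 5 at -5.19 and -5.50. Its SD was 0.36 with LIN and 0.40 in control (n = 4 each).

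Among themselves the members fell into the pattern of single LIN arrays. The 84 lower members were lowest on LIN 6, where their median stood at -1.66 relative to the control mean and all 84 were below it. LIN 5 followed at -0.89, again with all 84 below the control mean. LIN 3 and LIN 4 stood at -0.18 and -0.08, inside the range of the control arrays, whose medians were 0.45, -0.45, 0.07 and -0.10 in replicates 1, 3, 4 and 6. LIN 6 was the farthest of the LIN arrays from control in 77 of the 84, and in 76 of the 84 it was the lowest of all 16 arrays. Over the 11144 probes LIN 6 was the lowest of the 16 arrays in 21.6%. The lower members were chosen for a low LIN mean, so a LIN array being the lowest follows in part from the choice. The same holds for the higher members below. These counts describe which LIN arrays the choice rested on, and the difference from all probes is not a result about the members.

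The 16 higher members followed another array. Their median stood 1.99 above the control mean on LIN 3, 0.72 on LIN 4, 0.62 on LIN 6 and -0.04 on LIN 5. All 16 were above the control mean on LIN 3 and 6 of 16 on LIN 5, and LIN 3 was the farthest LIN array in 15 of the 16. The control medians were 0.20, -0.12, 0.22 and -0.46 in replicates 1, 3, 4 and 6, so LIN 3 stood clear of every control array and LIN 5 did not. The higher and lower members thus did not follow the same arrays: LIN 5 stood at -0.89 for the lower and -0.04 for the higher members, and LIN 3 at -0.18 and 1.99.

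**Figure D2:**
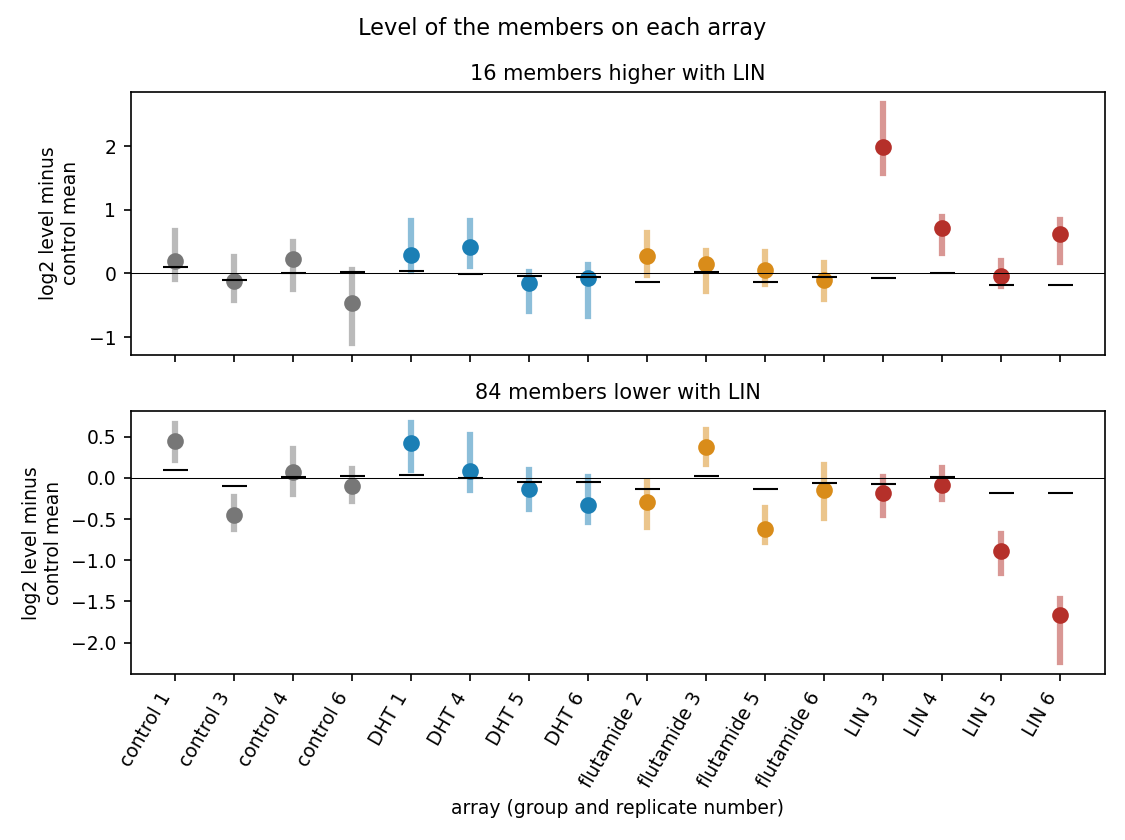
Level of the 16 higher and the 84 lower members on each of the 16 arrays, as the log2 difference from the mean of the 4 control arrays. Points are medians over members, thick bars the middle 50 percent of members and black dashes the median of all 11144 probes; LIN 3 stands at 1.99 for the higher members, and LIN 5 and LIN 6 at -0.89 and -1.66 for the lower ones.

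**Figure D3:**
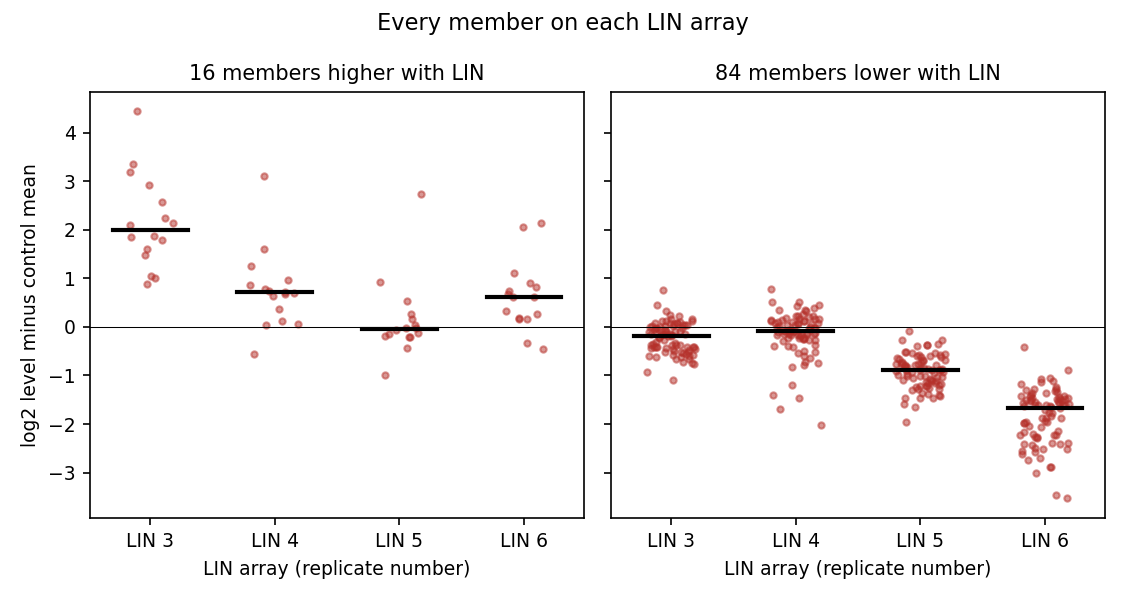
Every member on each LIN array, as the log2 difference from the mean of the 4 control arrays, with higher members on the left and lower members on the right. Black lines are medians; the lower members lie around 0 on LIN 3 and LIN 4 (medians -0.18 and -0.08) and below it on LIN 5 and LIN 6.

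Leaving out 1 array at a time showed how far each difference rested on it. Without LIN 6, 27 of the 84 lower members still differed by 0.5 or more, with a median of -0.40, and all 16 higher members did. Without LIN 3, 7 of the 16 higher members did, with a median of 0.46, and all 84 lower members. Without control 1, 62 of the 84 lower members did, with a median of -0.63. Without control 6, 11 of the 16 higher members did. Leaving out any other LIN or control array left at least 95 of the 100 at 0.5 or more.

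The bounds on DHT and flutamide were as sensitive. 50 of the 100 stayed within both bounds without control 3 and 51 without flutamide 3. When the whole rule was applied again without 1 array, 36 of the 100 members were chosen again without LIN 6, 41 without control 3, 43 without flutamide 2, 44 without flutamide 5, 46 without control 1, 51 without flutamide 3, 52 without control 4 and 57 without control 6. Leaving out any of the other arrays kept 68 to 83. The direction moved too: without LIN 6, 53 of the 100 probes then chosen were higher, and without LIN 3 only 5 were.

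The rule did not use the spread within groups, but choosing large LIN differences favours probes with 1 far LIN array. The spread is thus not independent of the choice. It was larger in the members than over all probes, in value and without a test. The median SD of the members was 0.82 in LIN, against 0.51 in control, 0.49 with DHT and 0.56 with flutamide. Over all 11144 probes these medians were 0.42, 0.35, 0.33 and 0.36. LIN had the largest SD of the 4 groups in 71 of the 100 members and in 39.0% of all probes. Of the higher members 10 of 16 and of the lower members 61 of 84 had it.

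Replicate numbers gave a comparison inside each number that 3 of the LIN arrays allow. These differences, for the lower members and for the higher members below, are parts of those the rule used. They describe which arrays the choice rested on and carry no test. LIN 6 minus control 6 was -1.72 in the median lower member, and all 84 were negative. LIN 4 minus control 4 was -0.18, with 62 of 84 negative. LIN 3 minus control 3 was 0.13, with 56 of 84 positive. The median of all 11144 probes was -0.17, 0.01 and 0.01 in the same order. The lower members thus stood below the control of their own number with LIN 6, barely with LIN 4 and not with LIN 3.

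LIN 5 has no control of its number. It stood below DHT 5 in all 84 lower members, with a median of -0.77, and below flutamide 5 in 71 of 84, with a median of -0.30. In number 6 the medians of the lower members were -1.49 for LIN minus DHT and -1.50 for LIN minus flutamide. DHT minus control was -0.20 there and flutamide minus control -0.02. The choice of the lower members rested most on LIN 6, and the rule bounded DHT and flutamide, so these values follow from the choice. In number 3 flutamide stood 0.75 above control in the median lower member, and 83 of 84 were positive. The median of all probes was 0.10 there. The flutamide arrays stood at 0.38 in replicate 3 and at -0.62 in replicate 5 relative to the control mean, on either side of a group mean that the rule held near control.

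The 16 higher members were above their own control in all 3 numbers, with medians of 2.07 in number 3 (16 of 16 positive), 0.48 in number 4 (13 of 16) and 0.92 in number 6 (15 of 16). LIN 5 minus DHT 5 and LIN 5 minus flutamide 5 were 0.26 and 0.06. In 12 of the 16 higher members and 22 of the 84 lower members, LIN differed from control in the direction of the member in all 3 numbers, and in 3091 of all 11144 probes the 3 differences had the direction of the probe's mean difference. The share of the lower members is near that of all probes. In the median higher member DHT minus control was 0.16, 0.33 and 0.39 in numbers 1, 4 and 6. Flutamide minus control was 0.24 and 0.36 in numbers 3 and 6. Over all probes these medians were -0.06, -0.01 and -0.07 for DHT, and 0.10 and -0.07 for flutamide. A positive median within a number was thus not particular to LIN, and in number 4 the 0.33 of DHT was near the 0.48 of LIN.

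**Figure D4:**
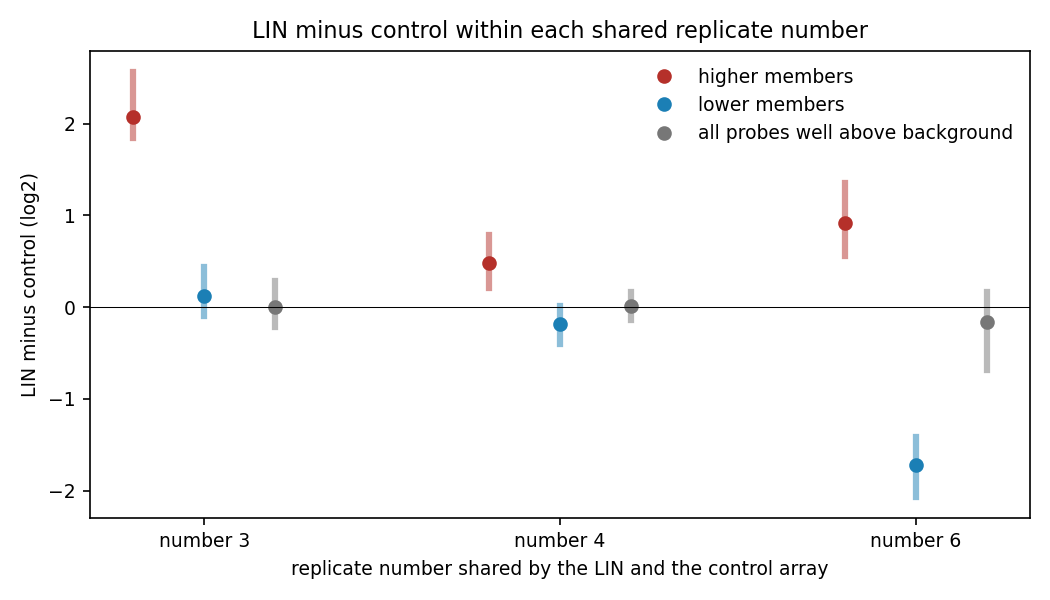
LIN minus control on the log2 scale within replicate numbers 3, 4 and 6, for the 16 higher members, the 84 lower members and all 11144 probes well above background. Points are medians and bars the middle 50 percent of probes; the lower members stand at 0.13, -0.18 and -1.72 and the higher ones at 2.07, 0.48 and 0.92.

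The group means of the rule were also taken without all arrays of a number, and the probes so chosen were read in the LIN and control arrays left out. The filter for probes well above background still used all 16 arrays, so the arrays left out took part in it. Without number 6, 87 probes met the rule. LIN 6 minus control 6 had the chosen sign in 47 of 51 lower ones (median -0.96) and in 29 of 36 higher ones (median 0.51), where 62.6% and 37.4% of all probes had those signs. Without number 4, the left-out difference had the chosen sign in 65 of 93 lower ones (median -0.12, against -0.92 where chosen) and 6 of 7 higher ones. Without number 3, it had the chosen sign in 14 of 83 lower ones, with a median of 0.29 against -0.74 where chosen, and in 12 of 17 higher ones. The sets chosen without numbers 3, 4 and 6 shared 16, 57 and 28 probes with the members. In value, the left-out median of the lower ones was negative in number 6, slightly negative in number 4 and positive in number 3. Each reading rests on the LIN and the control array of that number alone, and probes are not replicates. The dimmest of 5 equal groups of all probes, described below, also stood low on LIN 6 and LIN 5, at -0.86 and -0.67 relative to the control mean. Its median was -0.03 on control 6. In number 3 it was -0.15 on LIN 3 and -0.32 on control 3, and in number 4 it was 0.04 on LIN 4 and 0.06 on control 4. The chosen probes were not matched for level with all probes. The part of these shifts in the signs was not tested, so no repeat or reversal is concluded.

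Whether a probe varied with the replicate number was tested on deviations from the group means. The rule used the means and not these deviations, but its choice favours a wide LIN group, and that spread enters the test. The limma F test called 6759 of 13146 probes, or 51.4%, and 26 of the 100 members (7 higher, 19 lower), with 1 member not tested because a spot of it marked as an outlier was left out. The members' share was below that of all probes. Since the choice is not independent of the spread, nothing about the members is read from this share. With slide as a block 12 of the 100 members were called, against 4470 of 13146 probes. Without LIN 6 it was 44 members, and leaving out 1 array at a time gave 5538 to 6942 probes called. The count of all probes without LIN 6 alone is not given here, so the 44 are not set against a share.

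The difference between LIN and control was also read within slides, as parts of the difference the rule used. Slide 1 held LIN 3, LIN 4 and control 1, and the median difference was 1.00 for the higher and -0.60 for the lower members, with 1 of 16 higher members negative and 3 of 84 lower members positive. Control 1, the only control there, had the highest median of the controls for the lower members, at 0.45 relative to the control mean. LIN 3 and LIN 4 stood at -0.18 and -0.08, so the -0.60 rests largely on that 1 control array. Slide 3 held LIN 5, LIN 6, control 4 and control 6, with 0.48 and -1.32, and 3 of 16 higher members and all 84 lower members negative. The medians of all probes were -0.11 and -0.19. Slide 2 held no LIN array.

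The row of the slide was linked to the groups through DHT and LIN arrays that lay in other rows than the rest of their group, so LIN against control could be fitted with row as a block over the 12 arrays of control, DHT and LIN. The estimate then rests on DHT 4 and LIN 4, 1 array each. The median difference of the 84 lower members was 0.10, with 37 of 84 below 0, and that of the 16 higher members was 1.01, with 14 of 16 above 0. The median over all 11144 probes was 0.02. limma called 0 probes and 0 members in this fit, with an unadjusted p below 0.05 in 3 of the higher and 2 of the lower members, against 755 of 13146 probes or 5.74%. The lower members did not keep their direction in this fit, which was chosen after seeing the data. LIN 3, 5 and 6 lay alone in row 4, so they do not enter the estimate. On LIN 4 the lower members already stood at -0.08 relative to the control mean. The fit therefore cannot tell row from LIN, and nothing is concluded from it.

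The members were dim. Their median signal level over all arrays was -3.72, against -1.68 for the 11144 probes, and 38, 34, 21, 4 and 3 of the 100 lay in 5 equal groups of probes ordered from dim to bright. Among the lower members 35 of 84 lay in the dimmest group, and among the higher members 3 of 16. These are signals of probes and say nothing of how abundant one transcript is beside another. The dimmest group as a whole moved with the same arrays as the lower members: its median stood at -0.86 on LIN 6, -0.67 on LIN 5, -0.52 on flutamide 5, -0.15 on LIN 3 and 0.04 on LIN 4, relative to the control mean. In the brightest group those medians were 0.09, 0.03, 0.06, -0.03 and -0.03. The part of this shift in the members' differences was not tested.

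Scaling changed the balance between the directions. With medians in place of the 75th percentile the rule took 35 higher and 65 lower probes, with quantile normalization 39 and 61, with the authors' deposited log2 values 39 and 61, and with normexp 35 and 44. All 100 members kept the sign of their LIN difference under each of these. They had been chosen at 0.64 or more in size, which left little room for a change of sign, and 25 to 38 of them were chosen again. The median difference of all 11144 probes was -0.10 with the 75th percentile and 0.09 with medians, and that of the lower members was -0.73 and -0.54. The lower members stood at -0.51 with quantile normalization, -0.56 with the authors' values and -0.33 with normexp, the last below the minimum size of 0.5. The higher members stood at 0.74 with the 75th percentile, 0.94 with medians, 0.94 with quantile normalization, 0.93 with the authors' values and 0.65 with normexp.

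A name class that the rule did not use was frequent among the members. Probes with AM in the identifier, which are the same probes whose sequence name ends in ms, made up 14 of the 100 members (1 higher, 13 lower), against 251 of the 11144 probes or 2.25%. The sources used here do not say what these marks mean. The 251 AM probes were dim as well, with a median level of -3.98 against -1.61 for the other probes, and stood at -0.46 in the median for LIN minus control and -1.07 on LIN 6. Sequences named by a gi number made up 32 of the members and 16.0% of the 11144 probes. Names with rc made up 21 of the members and 21.8% of the probes.

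Some sequence names carry another probe on the array, read from the same RNA samples. 18 members have such a partner, and 15 of the partners were well above background on all arrays. Each pair joins a probe with AM in its identifier and a probe without it. A difference within a pair thus cannot be told apart from this class of probes, whose meaning is not known here. LIN minus control had the sign of the member in 8 of the 15 and the opposite sign in 7. Partners of the 14 lower members had a median of -0.12, where the members themselves had been chosen at -0.64 or below. In 5 of the 15 the partner differed by at least 0.5 in the direction of the member, and 0 partners met the rule. Over the 16 arrays, which give both probes the same RNA, the correlation of member and partner ran from r = -0.50 to r = 0.95, with a median of 0.29, and was above 0.8 in 2 pairs. The member was the dimmer probe in 13 of the 15 pairs.

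The pairs with the closest courses are given with their identifiers, chosen after their values were seen. For gi_72695676 the member UF_Ppr_AM_119550 and its partner UF_Ppr_AF_110880 stood at -0.85 and -0.84 for LIN minus control, with r = 0.95 over the arrays. The partner fell outside the bound because flutamide stood at -0.40. For contig FJU.11193.C3 the higher member UF_Ppr_AM_120196 and its partner UF_Ppr_AF_118507 stood at 0.73 and 1.34, with r = 0.84. The partner again fell outside, with 0.57 for flutamide and 0.47 for DHT. In these 2 sequences the second probe showed the LIN difference and a smaller one of the same sign with flutamide.

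Other pairs parted. For contig FJU.4409.C2 the member UF_Ppr_AM_120754, at -1.05, had a partner at 0.02, with r = 0.11. For contig FJU.5693.C1 the member UF_Ppr_AF_109165, at -0.79, had a partner at 0.32, with r = -0.50. In these sequences the reading of LIN depended on which probe was read.

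**Figure D5:**
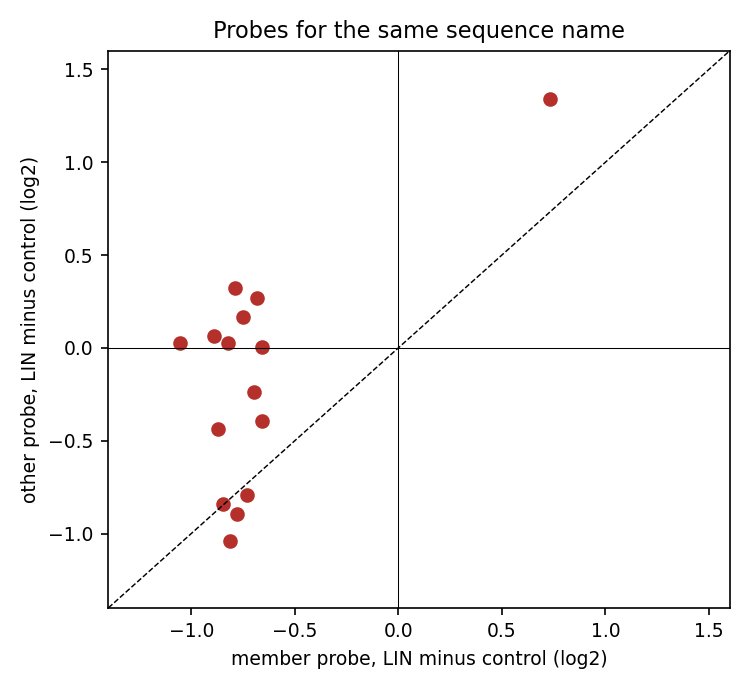
LIN minus control (log2) of 15 members against that of another probe for the same sequence name. The dashed line marks equal values; 7 of the 15 partners have the opposite sign, and the partner of the 1 higher member stands at 1.34.

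Turning the same rule to the other compounds gave the size of sets that arise for each. With flutamide as the compound that may differ, 258 probes met the rule and the largest 100 held 40 higher and 60 lower probes, with a median size of 0.77. With DHT 103 met it, and the largest 100 held 67 higher and 33 lower, with a median size of 0.59. LIN lay between in number, with 246, and had a median size of 0.73. The sets share the control arrays and, in part, the bounds. The array on which each set rested most was LIN 6 for LIN, with 43 of 100 probes still at 0.5 or more without it, flutamide 2 for flutamide, with 67, and control 3 for DHT, with 28. The hundredth probe stood at 0.64 in size for LIN, 0.65 for flutamide and 0.504 for DHT. The sets thus lay at unlike distances from the minimum of 0.5, and these counts are not compared. The group that defined the set had the largest SD of the 4 groups in 71 probes for LIN, 49 for flutamide and 21 for DHT. Over all 11144 probes these groups had it in 39.0%, 23.3% and 16.7%, and the choice itself favours a wide group. No test of the difference between these sets was made.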

How the data were processed

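Total RNA of 16 samples was labelled with Cy3 and hybridised to one-colour arrays, per the labels. The authors deposited 1 scanner file per array with an intensity per spot (Feature Extraction 10.7.1.1 in the file headers) that is background-subtracted and detrended within the array and not scaled between arrays. A second deposited table holds log2 values of these arrays, with its normalization not given in the sources used here. Each column correlated with the log2 signal of its array at r of at least 0.9995 and had a median between 7.72 and 7.77, so direction and scale are known and the centring is not.

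From the 15744 spots 536 control spots were left out. A level is the log2 ratio of a probe's processed signal to the 75th percentile over the 15208 probes of its array. The rule was applied to all spots. In the fits, 185 spots marked as outliers were left out, 1 of them in a member, and 0 probes were saturated. limma 3.58.1 in R 4.3.3 was fitted to 13146 probes that 3 or more arrays of some group showed well above background: group means over 16 arrays for LIN against control, and group plus replicate number for the moderated F test, with Benjamini-Hochberg adjustment over these probes at 0.05. Random blocks used duplicateCorrelation (correlation 0.63). The fits were checked on simulated data. P-values cover only the spread between samples, which may be technical since separate fish are not stated, and precision is limited by how few arrays there are.

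The numbers in the titles pair the samples, since all 16 same-numbered pairs deviated together (r from 0.35 to 0.77). What a number stands for is not in the labels. Named probes are the 2 members per direction with the largest difference, members whose LIN values overlap with no other array (0 found), members called, and those said to be named after their values were seen. Alternatives were other scalings, normexp (offset 50) with quantile normalization, the authors' log2 table, other filters and priors, replicate, slide and row blocks, and each array left out. The members and tests were chosen with earlier results of these data known.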

Additional observations from a re-analysis of the deposited data

Results flagged for a closer look

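1 of 44 groups of 4 values tested, those of the named members and of the medians of the higher and lower members, had a sample far from the others by Dixon's test at the critical value of 0.829. In UF_Ppr_AF_111475, LIN replicate 6 stood at -4.83, and its gap to the nearest LIN array was 0.968 of the range of the group. Chance gives about 1 in 20 such groups. Over all 100 members the LIN group was marked in 6, the control group in 7, the DHT group in 7 and the flutamide group in 3, against 4.91%, 6.23%, 6.20% and 5.33% of the 11144 probes.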

How the results depend on the processing

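The choice of members changed with the processing, and the cause was not tested. Of the 100 members 25 were chosen again under normexp, 31 under median scaling, 36 under quantile normalization and 38 in the authors' log2 table. It was 41 with a slide block, 22 with a random replicate block, 10 with a fixed replicate block, and 36 to 83 with 1 array left out. The number of probes meeting the rule, 246, was 79 with normexp, 412 with the fixed replicate block and 155 to 516 with 1 array left out. Higher probes among those chosen numbered 35 with median scaling and with normexp, 39 with quantile normalization and with the authors' table, and 5 to 53 with 1 array left out. Members whose LIN and control values did not overlap numbered 7, 10, 10 and 8 with median scaling, quantile normalization, normexp and the authors' table, and 4 to 29 with 1 array left out, where fewer values make a lack of overlap easier. The share over all probes was not computed under these settings, so nothing about the members is read from these counts.

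Probes called for LIN against control numbered 10 with the authors' table, 6 with slide as a block, 0 with row as a block (chosen after seeing the data), 147 with a random replicate block, 0 with a fixed one, and 0 to 87 with 1 array left out (87 without LIN 4). Members called numbered 1 with the random block and 0 in the 27 other alternatives. For the replicate number, slide as a block gave 4470 of 13146 probes and 12 members. Leaving out 1 array gave 5538 to 6942 probes and 19 to 44 members. As the choice favours a wide LIN group, nothing about the members is read from these counts. UF_Ppr_AF_119053 stood at -0.36 with normexp. Members chosen again numbered 99 when spots marked as outliers were left out, an alternative chosen after seeing the data. With row as a block the median difference of the lower members was 0.10.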
